A study of Mus musculus with 7 samples.

Results

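Messenger RNA was compared between Pdgfra-lo CD81+ cells of the mouse intestinal mesenchyme 6 days after Apc was inactivated in the neighbouring epithelium and the same sorted population of wildtype mice. The comparison takes 5 of the 7 libraries of the study, chosen by their names: 2 day 6 knockout libraries and all 3 wildtype controls. The other 2 libraries, from day 4 knockouts, entered the filter on low values, the estimate of spread and the test of day 6 against day 4. In the knockout mice both Apc alleles were floxed (Apcflox/flox) and were recombined by Villin-CreERT2, a Cre recombinase that tamoxifen switches on in intestinal epithelial cells, so the sorted stromal cells themselves are not the cells in which the driver acts. For the controls the labels give only the word wildtype, and the alleles they carry, any tamoxifen they received, the age and sex of the animals and pooling of animals are not given in the sources used here. The column names also mark all 7 libraries as GFP-low.

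Cells of this phenotype, known as trophocytes, are fibroblasts beneath the crypts. They feed the epithelial stem cells with the BMP antagonist Grem1, with R-spondins and with WNT ligands, and so keep differentiation signals away from the crypt base. Apc is a scaffold of the complex that degrades beta-catenin, and its loss switches on WNT target genes and expands crypt-like epithelium. The comparison asks what the stromal cells next to such an epithelium express on the later of the sampled days.

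Per the column names, which mark each control with a day, 1 control belongs to the day 4 set and 2 to the day 6 set. One day 6 knockout column carries no day in its name and is taken as replicate 2 because every other knockout sample matches another column. Throughout, control values are given in the order day 4 set control, first day 6 set control, second day 6 set control, and knockout values as replicate 1, then replicate 2. Values are the authors' FPKM, fragments scaled to transcript length and to the total of the library. Changes are differences in mean log2(FPKM + 1) with the standard error (SE) of a limma model, and they understate the change of genes near 1 FPKM.

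The sort markers were present in all 5 libraries. Cd81 was at 109.8, 149 and 142 FPKM in the controls and 169 and 105 FPKM in the knockouts, a change of 0.01 ± 0.43. Pdgfra was at 61.3, 54.3 and 59.9 FPKM and 111 and 89.2 FPKM (change 0.76 ± 0.25, adjusted p = 0.594), so both knockouts lay above all controls for this gated gene. Apc was at 2.63, 2.69 and 2.46 FPKM and 2.73 and 3.29 FPKM, which does not check the knockout because the deletion is epithelial. Other genes separated the libraries by features apart from genotype. Ddx3y, on the Y chromosome, was at 0, 39.9 and 0.182 FPKM in the controls and 34.8 and 9.10 FPKM in the knockouts, and Xist, of the inactive X, at 3.48, 0 and 3.02 FPKM and 0 and 2.17 FPKM, so replicate 2 held both and the sexes were not balanced between the groups. Epithelial markers summed to between 4.29 and 5.97 FPKM in the controls, 24.5 FPKM in replicate 1 and 6.42 FPKM in replicate 2. Some abundant genes are listed at 0 in single libraries, Col3a1 in replicate 2 and Col1a1, Col1a2, Col3a1, Dcn and Gsn in the day 4 set control, so no fold is given for them. Ddx3y, Xist and the genes at 0 were chosen after their values were seen. The libraries also separated by set. On the first principal component, the axis of widest spread among the 7 libraries (34.8% of the variance), the day 4 set control was at 6.83. The day 4 knockouts lay on the same side at 29.0 and 39.4. The day 6 set lay on the other side, with its controls at -24.6 and -31.7 and its knockouts at -7.55 and -11.4.

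At day 6, 5 genes rose and 0 fell. Apod, Hspb7, Serpina3m and Alpl are 4 of them and are described here. Tested by limma were 11735 genes that reached 1 FPKM in 2 or more of the 7 libraries. Of these, 0.0426% passed an adjusted p of 0.05 toward higher values and 0% toward lower values. At an unadjusted p under 0.05 there were 852 genes (7.26%), where 587 would be expected with no differences. These divided into 445 higher (3.79%) and 407 lower (3.47%). The median change over all genes tested was -0.01.

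**Figure D1:**
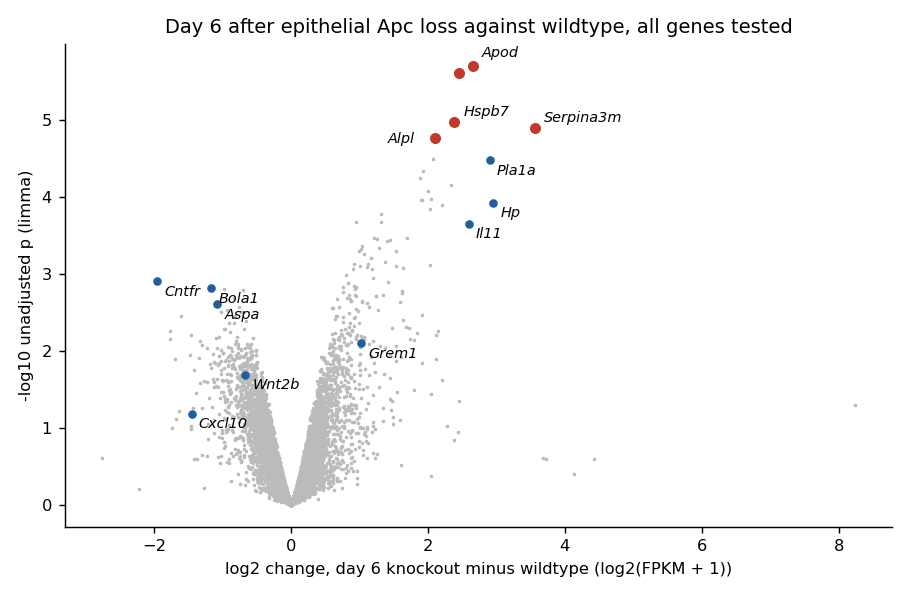
Each point is 1 of the 11735 genes tested, with its log2 change (day 6 knockout minus wildtype) on the x axis and the -log10 of the unadjusted limma p on the y axis. Red points are the 5 genes with an adjusted p under 0.05, all of them higher and 4 of them named, and blue points are other genes described in the text; the grey points right of 3.6 include Dcn, Gsn, Col1a1 and Col1a2, which are listed at 0 in the day 4 set control.

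Apod, apolipoprotein D, a small lipid-carrying lipocalin, was at 7.97, 6.20 and 5.04 FPKM in the controls and 43.2 and 47.2 FPKM in the knockouts. Both knockout libraries lay far above the highest control, and the change was 2.66 ± 0.21 (limma adjusted p = 0.0144). Serpina3m, a serpin related to human antichymotrypsin, was at 1.73, 2.85 and 0.926 FPKM in the controls and 31.4 and 30.8 FPKM in the knockouts, a change of 3.56 ± 0.37 (adjusted p = 0.0372). It had the largest change of these 4, and its knockout libraries nearly coincided. Alpl, the tissue-nonspecific alkaline phosphatase, was at 24.0, 23.2 and 33.2 FPKM and 101 and 136 FPKM, a change of 2.10 ± 0.23 (adjusted p = 0.0402).

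Hspb7 was near absent in the controls. This small heat shock protein, known from heart muscle, was at 0.405, 0.327 and 0.534 FPKM in the controls and 8.50 and 4.77 FPKM in the knockouts, a change of 2.38 ± 0.24 (adjusted p = 0.0372). No control reached 1 FPKM, so Hspb7 passed the filter on low values only through the knockout libraries where it was high, and it missed the threshold with a filter of 3 FPKM. Its knockout libraries differed more from each other here than for Apod or Serpina3m.

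Against the 2 day 6 set controls alone, with the spread taken from all 7 libraries, the changes were 2.81 ± 0.21 for Apod, 3.56 ± 0.42 for Serpina3m, 2.03 ± 0.25 for Alpl and 2.38 ± 0.28 for Hspb7. Apod (adjusted p = 0.0321) passed in that fit and the other 3 of these did not (adjusted p = 0.130 to 0.142), while haptoglobin, Hp, passed in their place. Over 22 alternative settings the adjusted p of Apod ranged from 0.00925 to 0.294, and it reached 0.421 for Serpina3m and 0.294 for Alpl and for Hspb7. The calls depended on single libraries. The count of genes higher was 0 without the first day 6 set control, 3 without the second, 2 without the day 4 set control, 0 without day 6 replicate 1, 0 without replicate 2, and 6 without either of the day 4 libraries. Where any gene passed in these, Apod was among them. With Ddx3y as a covariate and with quantile normalization 0 genes passed.

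Genes next in rank missed the threshold, and those named were picked among genes whose groups do not overlap. Pla1a, a phosphatidylserine-specific phospholipase, was at 1.17, 0.818 and 0.842 FPKM in the controls and 13.4 and 13.5 FPKM in the knockouts, a change of 2.90 ± 0.34 (adjusted p = 0.0563). Spp1, osteopontin, a secreted matrix and mineral-binding protein, was at 0.0856, 0 and 0.0464 FPKM and 3.41 and 3.38 FPKM, a change of 2.07 ± 0.24 (adjusted p = 0.0563). In the knockouts each of these genes had nearly the same level in both libraries. Serpina3n, a paralog of Serpina3m, was the most abundant of the group at 279, 254 and 224 FPKM and 1253 and 804 FPKM, a change of 1.99 ± 0.27 (adjusted p = 0.0911). Reads of the Serpina3 paralogs can be shared, and how they were assigned is not given in the sources used here, so the split between Serpina3m and Serpina3n is uncertain.

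Cyp1b1, a cytochrome that metabolises retinoids and steroids, was at 84.8, 96.3 and 70.7 FPKM and 477 and 253 FPKM, a change of 2.05 ± 0.29 (adjusted p = 0.0925). Map3k6, a stress-activated kinase of the MAP kinase cascade, was at 3.06, 5.39 and 3.22 FPKM and 29.7 and 18.2 FPKM (2.34 ± 0.31, adjusted p = 0.0821). In each of these, replicate 1 stood above replicate 2, and both stood above every control. Hp, which binds free haemoglobin, was at 2.86, 0.347 and 0.918 FPKM and 12.5 and 19.4 FPKM (2.95 ± 0.42, adjusted p = 0.0930). Its controls differed by set, with the day 4 set control highest. Galnt15, an enzyme that starts O-linked glycosylation, had a change of 2.02 ± 0.29, the membrane scaffold Mpp6 1.90 ± 0.27, the calcium-dependent lipid-binding copine Cpne7 2.20 ± 0.31 and the membrane protein Ttyh1 1.92 ± 0.27. Adjusted p for these 4 lay between 0.0925 and 0.101.

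**Figure D2:**
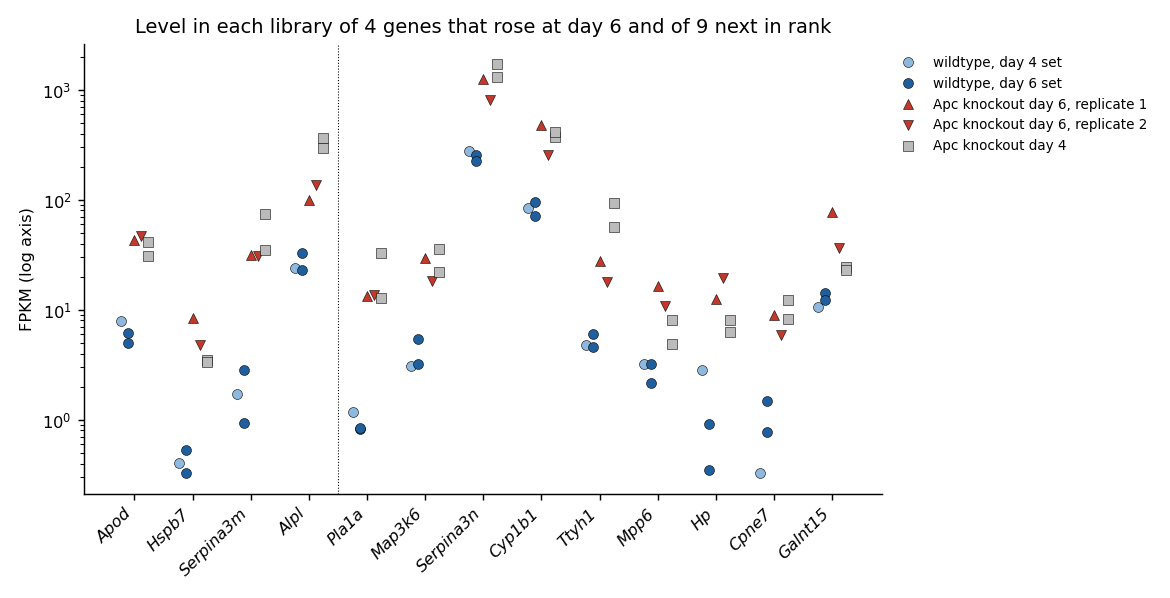
FPKM (log axis) of 13 genes in each of the 7 libraries, with 4 genes that passed the threshold left of the dotted line and the 9 next in rank by the naming rule right of it. For each of the 13 genes both day 6 libraries (red triangles) lie above all 3 controls (blue circles), and the day 4 libraries (grey squares) are shown for reference.

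Of the 26 genes looked for, which passed or ranked next in either direction, 20 had a promoter window in the RefSeq table (GRCm38.p6, 250 bases before to 50 after the start). These included 8 of the 12 top-ranked genes toward higher values, but not Serpina3m or Pla1a. Of 5 motifs searched on both strands, the glucocorticoid receptor site (GNACA and TGTNC, 3 bases apart) matched in the windows of 2 of those 8 genes, Serpina3n and Map3k6, and in none of Alpl, Apod and Hspb7, the genes that rose and had a window. It occurs in 0.359% of the genes tested that have a window and in 0.537% of all genes of the table. The sequence before the start site of both genes is shown because it holds this match, with the match in capitals, on the plus strand at chr12:104406458-104406707 for Serpina3n and chr4:133240568-133240817 for Map3k6.
Serpina3n: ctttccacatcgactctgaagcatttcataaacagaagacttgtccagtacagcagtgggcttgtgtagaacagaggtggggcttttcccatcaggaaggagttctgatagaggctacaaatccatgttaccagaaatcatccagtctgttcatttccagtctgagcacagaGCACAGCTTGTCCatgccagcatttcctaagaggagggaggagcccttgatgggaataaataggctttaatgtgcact
Map3k6: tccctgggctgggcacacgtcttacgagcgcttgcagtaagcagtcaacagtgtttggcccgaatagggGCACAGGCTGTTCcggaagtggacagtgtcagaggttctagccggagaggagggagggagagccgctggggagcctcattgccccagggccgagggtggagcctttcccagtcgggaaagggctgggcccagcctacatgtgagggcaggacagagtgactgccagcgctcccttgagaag
The match begins 78 bases before the start in Serpina3n and 181 bases before it in Map3k6. The other sites searched, for STAT factors (TTCNNNGAA), AP-1 (TGANTCA), the E-box (CACGTG) and C/EBP (TTGCNNAA), matched in 0, 1, 0 and 0 of those 8 genes, the AP-1 match being in Galnt15. Over genes tested that have a window their shares were 8.32%, 6.07%, 11.8% and 10.1%. Map3k6 is also on the list of glucocorticoid-responsive genes described next, so the match and that list share a gene. On that list the glucocorticoid receptor site matched in 3 of 14 genes with a window, Map3k6, Mt1 and Sgk1. The STAT, AP-1, E-box and C/EBP sites matched in 4, 2, 4 and 4 of those 14 genes. The 8 genes were picked for their high levels at day 6. These matches describe letters in a window and say nothing about binding.

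Glucocorticoid-responsive genes had a median change of 0.50 over its 18 members, all of which were tested, against -0.01 over all genes. Glucocorticoids act through a nuclear receptor that switches on a known set of stress, metabolic and anti-inflammatory genes in most cell types. None passed the threshold, but 8 members had both knockout libraries above all 3 controls and 0 had both below. Over all genes tested these shares were 13.9% above and 11.9% below. Against both day 6 set controls 10 members lay above (19.7% of all genes) and 0 below (22.5%). The receptor gene itself, Nr3c1, was at 24.6, 24.0 and 22.8 FPKM in the controls and 17.8 and 23.1 FPKM in the knockouts, and was chosen after its values were seen.

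Pdk4, a kinase that holds glucose carbon out of the mitochondrial cycle, was at 8.53, 8.67 and 8.59 FPKM in the controls and 58.2 and 25.2 FPKM in the knockouts (2.04 ± 0.38, adjusted p = 0.239). Fkbp5, a chaperone that limits the glucocorticoid receptor, was at 7.88, 18.5 and 15.1 FPKM and 73.2 and 28.1 FPKM (1.72 ± 0.45), and Angptl4, an inhibitor of lipoprotein lipase, at 83.2, 114 and 80.4 FPKM and 251 and 148 FPKM (1.07 ± 0.30). For all of these replicate 1 was the higher knockout library and the controls were clear of both. Against the day 6 set controls alone the list had a median of 0.25; it was 0.47 without replicate 1 and 0.50 without replicate 2. Hsd11b1, the enzyme that regenerates active glucocorticoid inside cells, stood on another list at 413, 383 and 360.3 FPKM and 962 and 628 FPKM (1.01 ± 0.32, adjusted p = 0.592).

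The cytokines that signal through gp130, the shared receptor subunit encoded by Il6st, act through STAT3 and include IL-6, IL-11 and LIF. Among ligands, Il11 was at 1.16, 3.25 and 0.477 FPKM in the controls and 11.2 and 16.0 FPKM in the knockouts, a change of 2.59 ± 0.40 (adjusted p = 0.125). Lif had a change of 0.69 ± 0.49. Il11 stood clear of the controls, while Lif overlapped. Il6 was at 138, 920.4 and 227 FPKM and 271 and 203 FPKM, with the highest level in a control. Lif and Il6 were chosen after their values were seen.

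On the receptor side, Cntfr, the ligand-binding subunit of the receptor for ciliary neurotrophic factor, had the lowest p of all genes with a negative change. It was at 18.4, 13.7 and 11.5 FPKM in the controls and 1.39 and 5.52 FPKM in the knockouts, a change of -1.95 ± 0.40 that did not pass (adjusted p = 0.319). Of 21 tested genes on the list of IL-6 family receptors and STAT3 targets, 1 rose (Serpina3m), 6 lay above and 1 below all controls (13.9% and 11.9% of all genes), and the median change was 0.33. That median was 0.17 with replicate 1 alone and 0.26 with replicate 2 alone, both lower than with the 2 together. Serpina3m, Serpina3n and Hp are members of that list. Timp1, an inhibitor of matrix metalloproteinases, was at 17.9, 22.9 and 25.0 FPKM and 47.6 and 43.0 FPKM, a change of 1.02 ± 0.18 (adjusted p = 0.194).

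BMP antagonists, which bind BMP ligands outside the cell and so shield stem cells from a differentiation signal, had a median change of 0.46 over 11 tested of 14 listed members, none of which passed. In 7 of them both knockout libraries lay above all controls and in 1, Twsg1, below, against 13.9% and 11.9% of all genes. The 7 include Chrdl2, which was below 1 FPKM in every control. It passed the filter only through knockout libraries, so the count gives no support. Grem1, the antagonist that marks trophocytes, was at 178, 195 and 164 FPKM in the controls and 501 and 267 FPKM in the knockouts, a change of 1.03 ± 0.29 (adjusted p = 0.575). Replicate 1 was the highest library by a wide margin and replicate 2 was above the highest control. Chrdl2 (chordin-like 2) was at 0.364, 0 and 0.138 FPKM and 3.42 and 2.19 FPKM, a change of 1.70 ± 0.28 (adjusted p = 0.170), and Bmper, which can also promote BMP signalling, at 5.42, 7.17 and 7.34 FPKM and 16.7 and 13.2 FPKM (1.06 ± 0.19, adjusted p = 0.204). Both were low genes whose knockout libraries were closer to each other than those of Grem1. Follistatin, Fst, which traps activins, was at 1.31, 3.88 and 1.78 FPKM and 4.70 and 6.10 FPKM (1.01 ± 0.35). The list median was 0.28 without replicate 1, 0.79 without replicate 2 and 0.49 against the day 6 set controls.

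No BMP or GDF ligand passed. Of 10 tested, 3 had a change above 0, against 49.1% of all genes, and the median was -0.20 (-0.44 against the day 6 set controls). Bmp2 was at 69.7, 95.6 and 67.3 FPKM in the controls and 42.6 and 63.9 FPKM in the knockouts (-0.54 ± 0.24), and Bmp4 at 156, 157 and 158 FPKM and 113 and 134 FPKM (-0.35 ± 0.18), both without overlap. Bmp6 overlapped and its knockout libraries differed widely, at 12.1 and 43.3 FPKM against 49.6, 32.3 and 56.1 FPKM in the controls (-0.93 ± 0.52). Of 13 BMP receptors and target genes the median was 0.06 (-0.05 against the day 6 set controls). Id1, a target that BMP signalling switches on, was at 36.2, 38.4 and 47.3 FPKM and 60.3 and 70.8 FPKM (0.68 ± 0.19, adjusted p = 0.566), and the related Id2 at 69.1, 60.8 and 76.2 FPKM and 24.6 and 50.1 FPKM (-0.94 ± 0.32, adjusted p = 0.609).

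IGF binding proteins and their proteases had a median change of 0.84 over 8 tested of 10 listed. These proteins hold insulin-like growth factors in the matrix, and pappalysins cut them to release the ligand. None passed, while 5 lay above and 1 below all controls (13.9% and 11.9% of all genes). Spp1, Chrdl2, Pappa2, Mmp8 and Krt8, like Hspb7, were below 1 FPKM in every control and passed the filter only through knockout libraries, so counts that hold them give no support. Pappa was at 2.77, 2.85 and 2.69 FPKM in the controls and 11.2 and 6.79 FPKM in the knockouts (1.37 ± 0.25, adjusted p = 0.239), and Pappa2 at 0.229, 0.0899 and 0.317 FPKM and 1.96 and 1.64 FPKM (1.21 ± 0.20, adjusted p = 0.170). The protease Htra1 was at 133, 268 and 231 FPKM and 57.5 and 107 FPKM (-1.35 ± 0.42, adjusted p = 0.582). The Pappa controls were close together and both knockouts lay clear of them, whereas the controls of Htra1 differed between the sets. Igfbp3 was at 148, 429.8 and 357 FPKM and 1009.8 and 593 FPKM (1.45 ± 0.51, adjusted p = 0.618), with the day 4 set control far below the others. The ligand Igf1 was at 25.2, 21.9 and 30.5 FPKM and 49.3 and 41.7 FPKM (0.80 ± 0.32).

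**Figure D3:**
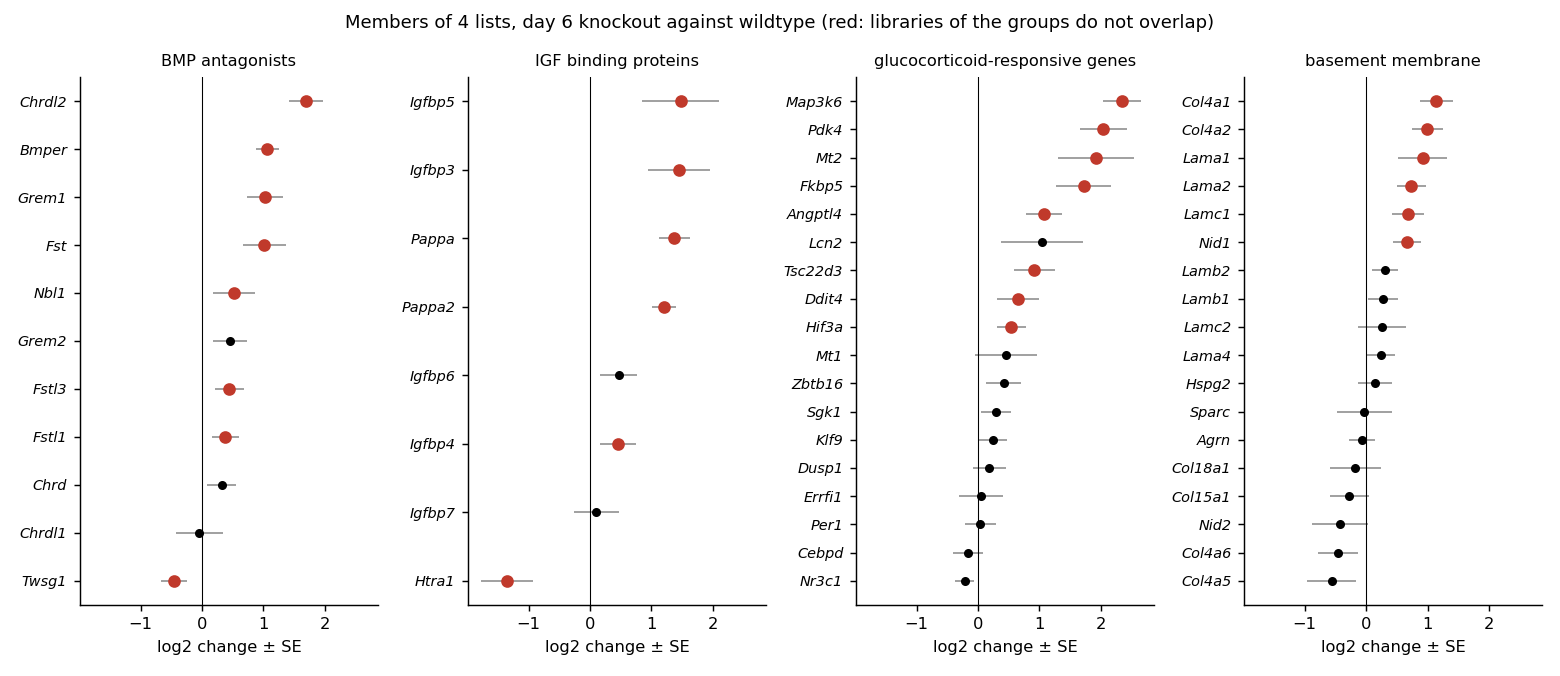
Log2 change (day 6 knockout minus wildtype) ± SE on the x axis for every tested member of 4 gene lists, 1 row per gene. Red points are genes whose 2 knockout libraries both lie above or both below all 3 controls, as in 7 of the 11 BMP antagonists above and 1 below. None of the genes plotted passed the threshold. Chrdl2 and Pappa2 were below 1 FPKM in every control and passed the filter only through knockout libraries.

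Basement membrane genes, the collagen IV and laminin sheet under epithelia, had 6 of 18 tested members (24 listed) above all controls and 0 below (13.9% and 11.9% of all genes), with a median of 0.25 and none past the threshold. Col4a1 was at 289.8, 267 and 419.7 FPKM in the controls and 818 and 609.8 FPKM in the knockouts (1.14 ± 0.26, adjusted p = 0.406), and Col4a2, which is transcribed from the same promoter region in the opposite direction, at 183, 135 and 208 FPKM and 387 and 306 FPKM (0.99 ± 0.25, adjusted p = 0.499). The laminin chain Lama2 and the linker Nid1 had changes of 0.74 ± 0.24 and 0.67 ± 0.22. Against the day 6 set controls alone 7 members lay above and 5 below (19.7% and 22.5% of all genes), so the 0 below rests on the day 4 set control. The list median was 0.09 without replicate 1 and 0.44 without replicate 2.

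Among TGF-beta pathway genes, Tgfb1, the ligand that drives matrix production, was at 12.4, 17.6 and 15.3 FPKM in the controls and 31.6 and 31.9 FPKM in the knockouts (1.04 ± 0.18, adjusted p = 0.191). Thbs1, thrombospondin 1, an activator of latent TGF-beta, was at 194, 247 and 159 FPKM and 572 and 379 FPKM (1.24 ± 0.27, adjusted p = 0.362), and the receptor Tgfbr2 at 224, 142 and 219 FPKM and 462 and 290.0 FPKM (0.94 ± 0.35). Tgfbi, a matrix protein induced by the pathway, pointed the other way at 154, 297 and 269 FPKM and 132 and 121 FPKM (-0.87 ± 0.28, adjusted p = 0.592). None of 17 tested members passed, and the list median was 0.06. Above all controls lay 4 members, and 2, Tgfbi and Tgfb3, lay below (13.9% and 11.9% of all genes). Against the day 6 set controls alone 4 lay above and 6 below (19.7% and 22.5% of all genes).

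Matrix proteases and inhibitors had 9 of 21 members above all controls and 3 below, against 13.9% and 11.9% of all genes. None passed, and the median of 0.26 was 0.31 with replicate 1 alone and 0.14 with replicate 2 alone. Mmp3, stromelysin, was at 162, 204 and 178 FPKM in the controls and 487 and 312 FPKM in the knockouts (1.10 ± 0.25, adjusted p = 0.383), and the collagenase Mmp8 at 0.779, 0.0629 and 0.285 FPKM and 3.13 and 4.31 FPKM (1.80 ± 0.50). Fibrillar and related collagens had a median of 0.20, or 0.02 against the day 6 set controls. Col1a1, the main fibrillar chain, was at 1976 and 2971 FPKM in those controls and 1586 and 3618 FPKM in the knockouts, which overlap, and it is listed at 0 in the day 4 set control. Col8a1 was at 40.7, 53.3 and 40.9 FPKM and 154 and 66.9 FPKM (1.17 ± 0.36, adjusted p = 0.582).

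Genes by which trophocytes are known stood near the background as a list. Of 12 tested markers 2 lay above all controls (Grem1 and Rspo3) and 2 below (Wnt2b and Cd34), against 13.9% and 11.9% of all genes. The median was -0.02 and none passed. Wnt2b, a canonical WNT ligand, was at 22.4, 26.8 and 38.2 FPKM in the controls and 16.1 and 19.2 FPKM in the knockouts (-0.66 ± 0.23, adjusted p = 0.610), and Cd34 at 454, 506 and 509 FPKM and 298 and 353 FPKM (-0.59 ± 0.21, adjusted p = 0.616). Rspo3, an R-spondin that amplifies WNT signals, was at 24.5, 24.7 and 26.2 FPKM and 26.6 and 29.4 FPKM (0.15 ± 0.22, adjusted p = 0.923). Wnt2b and Cd34 were thus lower in both knockouts than in any control, while the margin for Rspo3 was small beside its SE. Rspo2 was at 14.6, 10.3 and 19.4 FPKM and 4.90 and 10.8 FPKM (-0.87 ± 0.37), and Wnt4 at 2.30, 4.39 and 5.39 FPKM and 0.787 and 1.71 FPKM (-1.14 ± 0.41). Of 8 WNT target genes, a readout of WNT signals received by the stromal cells themselves, the median was -0.22 with none past the threshold, -0.39 with replicate 1 alone and near 0 with replicate 2 alone.

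EGF family ligands, which include growth signals for epithelium and the neuregulin Nrg1, had a median of 0.57 over 6, none past the threshold. Areg was at 9.35, 15.6 and 10.3 FPKM in the controls and 26.3 and 18.1 FPKM in the knockouts (0.87 ± 0.25, adjusted p = 0.575), and Ereg at 196, 222 and 159 FPKM and 241 and 383 FPKM (0.67 ± 0.32). In the Notch pathway, by which neighbouring cells set each other's fate, Heyl was at 3.48, 2.54 and 2.70 FPKM and 7.77 and 6.98 FPKM (1.11 ± 0.21, adjusted p = 0.239) and Hes1 at 472, 391 and 549 FPKM and 1141 and 783 FPKM (1.02 ± 0.28, adjusted p = 0.566). Both are transcriptional repressors that Notch induces, and 4 of 10 Notch genes lay above all controls with 0 below (13.9% and 11.9% of all genes). No member of either list passed.

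Toward lower values no gene passed, and the smallest adjusted p was 0.319, that of Cntfr. Bola1, a mitochondrial protein of the BolA family, was at 7.40, 4.89 and 5.79 FPKM in the controls and 1.87 and 2.35 FPKM in the knockouts (-1.16 ± 0.24, adjusted p = 0.347). Aspa, an enzyme that splits N-acetylaspartate, was at 11.9, 19.8 and 19.4 FPKM and 6.66 and 8.14 FPKM (-1.08 ± 0.25), and Stbd1, which tethers glycogen to membranes, at 46.5, 62.2 and 62.1 FPKM and 21.0 and 35.1 FPKM (-1.02 ± 0.24). Each of these was lowest in replicate 1, with replicate 2 also below all controls. The same order held for Itga8, an integrin subunit of mesenchymal cells (3.15, 9.48 and 5.88 FPKM and 0.892 and 2.12 FPKM, -1.46 ± 0.39), for Gamt, of creatine synthesis (-1.33 ± 0.37), for Lrrc17 (-1.30 ± 0.37), for the ion channel P2rx6 (-1.09 ± 0.30) and for Aard (-1.60 ± 0.39). Max, the partner of MYC, was at 17.1, 18.5 and 16.8 FPKM and 1.93 and 8.93 FPKM (-1.77 ± 0.47), and the ETS factor Elf2 at 12.2, 11.5 and 9.06 FPKM and 2.26 and 6.87 FPKM (-1.23 ± 0.36).

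Replicate 1 took the more extreme level in most genes with a change of at least 1. Of 141 such genes that were higher (1.2% of those tested) it was above replicate 2 in 110, and of 72 that were lower (0.614%) it was below replicate 2 in 65. Both knockout libraries were beyond all controls in 119 and 47 of them.

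Interferon-stimulated genes show how far the knockout libraries differed. Interferons induce these antiviral and antigen-processing genes in nearly all cells. Of 31 tested members 28 had a negative change, and the median was -0.56, with none past the threshold, whereas 49.1% of all genes had a change above 0. Below all controls lay 5, a share near the 11.9% of all genes, and 0 lay above. The median was -1.21 with replicate 1 alone and 0.19 with replicate 2 alone, so its sign rests on replicate 1. Gbp2, a guanylate-binding protein, was at 53.1, 57.2 and 56.5 FPKM in the controls and 14.6 and 44.7 FPKM in the knockouts (-1.09 ± 0.39, adjusted p = 0.618), and Irf1, a transcription factor of the response, at 407, 415 and 376 FPKM and 195 and 339 FPKM (-0.63 ± 0.25).

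MHC class I presentation genes, many of them interferon targets, followed the same split. Their median was -0.43 over 17, -0.68 with replicate 1 alone and -0.02 with replicate 2 alone, and none passed. B2m, the light chain of class I molecules, was at 3573, 3286 and 3648 FPKM and 1559 and 2910.5 FPKM (-0.72 ± 0.40), and the chemokine Cxcl10 at 506, 637 and 542 FPKM and 105 and 393 FPKM (-1.45 ± 0.68). Both were chosen after their values were seen. Of 32 tested cytokines and chemokines none passed and the median was -0.24. Cxcl12, which retains immune cells in tissue, was at 838, 1061 and 1015 FPKM and 573 and 715 FPKM (-0.59 ± 0.26), and Cxcl13, which attracts B cells, at 60.9, 50.7 and 45.1 FPKM and 125 and 92.4 FPKM (1.04 ± 0.29, adjusted p = 0.566).

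**Figure D4:**
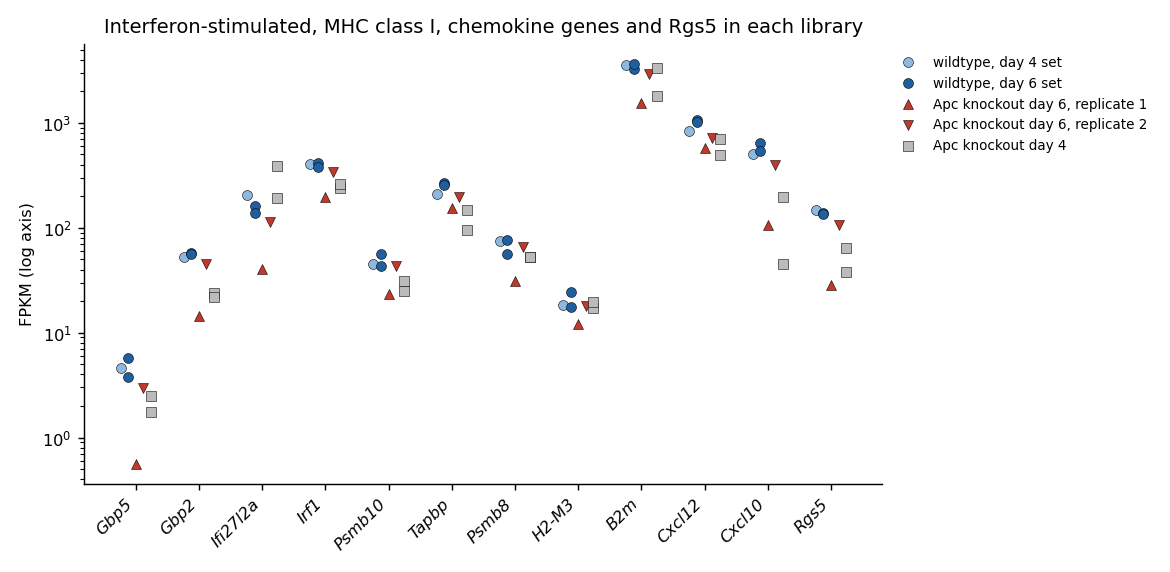
FPKM (log axis) in each of the 7 libraries for 4 interferon-stimulated genes, 5 MHC class I presentation genes, 2 chemokines and the pericyte marker Rgs5. Day 6 replicate 1 (upward red triangle) is the lowest of the 5 day 6 and wildtype libraries for all 12 genes, and replicate 2 (downward triangle) lies between it and the highest control.

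Cholesterol synthesis genes had a negative change in 18 of 18 tested members (49.1% of all genes had a change above 0), a median of -0.34 and 5 below all controls (11.9% of all genes), none past the threshold. Sc5d, which acts late in the pathway, was at 21.9, 32.1 and 26.2 FPKM in the controls and 13.0 and 18.4 FPKM in the knockouts (-0.73 ± 0.21, adjusted p = 0.575). That median was -0.57 with replicate 1 alone and -0.08 with replicate 2 alone. Oxidative phosphorylation genes had a median of -0.02 over 24. Of 21 lipid and adipogenic genes Apod rose, and 5 lay above all controls and 1 below (13.9% and 11.9% of all genes). Fabp4, a fatty acid carrier, was at 6.68, 5.53 and 3.16 FPKM and 14.5 and 13.5 FPKM (1.34 ± 0.29, adjusted p = 0.362), and Plin2, a coat protein of lipid droplets, at 45.8, 40.4 and 54.2 FPKM and 92.8 and 90.2 FPKM (0.96 ± 0.26). Both knockout libraries were close to each other for these.

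In the list of mineral regulators, which holds Alpl and Spp1, 5 of 9 tested members lay above all controls and 1, Omd, below (13.9% and 11.9% of all genes). The median was 0.45, 0.41 with replicate 1 alone and 0.23 with replicate 2 alone. The phosphate transporters Slc20a1 (0.49 ± 0.15) and Slc20a2, at 6.33, 5.89 and 8.06 FPKM and 11.8 and 9.27 FPKM (0.57 ± 0.19), were among them and did not pass. Of 19 heat shock genes Hspb7 rose, 3 lay above and 5 below all controls, against 13.9% and 11.9% of all genes, and the median was -0.23 (-0.11 against the day 6 set controls). Cryab, another small heat shock protein, was at 61.1, 59.8 and 59.6 FPKM and 39.6 and 44.8 FPKM (-0.50 ± 0.15, adjusted p = 0.582), opposite to Hspb7. Small heat shock proteins went both ways: Hspb1 and Hspb8 lay above all controls with Hspb7, and Hspb6 lay below with Cryab.

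Markers of other cells also differed. Markers of Pdgfra-low CD81-negative fibroblasts, a neighbouring population, had 4 of 8 tested members below all controls (11.9% of all genes), 0 above and a median of -0.55. Their sum was 5441 to 6759.6 FPKM in the controls and 2907 to 4734 FPKM in the knockouts, most of it Adamdec1, a secreted protease of lamina propria fibroblasts (4118, 4519 and 5151 FPKM and 1773 and 3348 FPKM). The 9 pericyte markers summed to 206 to 217 FPKM in the controls and 105 to 186 FPKM in the knockouts, and Rgs5 made up most of the sum in the controls (147, 139 and 135 FPKM and 28.3 and 106 FPKM). Most other pericyte markers did not share the direction of Rgs5. Of 7 tested, 5 had a positive change, against 49.1% of all genes, and the median was 0.14. The channel genes Kcnj8 (1.82, 0.763 and 1.96 FPKM and 5.87 and 7.23 FPKM) and Abcc9 (1.78, 1.14 and 1.02 FPKM and 2.61 and 2.48 FPKM) lay above all controls. Only Rgs5 lay below them. Over all genes these shares were 13.9% above and 11.9% below. In bulk libraries fewer cells of a type and less RNA per cell cannot be told apart, and the part of these cells in the other results was not tested.

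Epithelial markers did not point one way, and keratins were highest in replicate 1. Krt8 was at 0.292, 0.701 and 0.438 FPKM in the controls and 8.31 and 1.56 FPKM in the knockouts (1.73 ± 0.48, adjusted p = 0.566), Krt18 at 0.169, 0.299 and 0 FPKM and 4.73 and 0.826 FPKM, and Epcam at 0.811, 0.956 and 1.12 FPKM and 2.87 and 0.963 FPKM. Fabp2, a fatty acid carrier of enterocytes, lay below all controls at 1.15, 1.94 and 1.64 FPKM and 0.339 and 0.660 FPKM (-0.78 ± 0.22, adjusted p = 0.575), and Vil1 and Olfm4 did not exceed the highest control. Krt19 lay above all controls at 0.136, 0.130 and 0 FPKM and 5.10 and 0.842 FPKM. So did Cdh1, at 0.0880, 0.0107 and 0.0120 FPKM and 0.588 and 0.265 FPKM. Krt18, Krt19, Cdh1, Vil1 and Olfm4 were chosen after their values were seen. The stem cell marker Lgr5 reached at most 0.0371 FPKM in these 5 libraries. The 18 macrophage and dendritic cell markers summed to 657 to 1073 FPKM in the controls and 832 to 1010.5 FPKM in the knockouts. These ranges overlap. Of 15 tested members 3 lay above all controls and 0 below (13.9% and 11.9% of all genes), and none passed. A positive change was seen in 13, against 49.1% of all genes. Their median was 0.45, 0.64 with replicate 1 alone and 0.09 with replicate 2 alone. Blood endothelial markers summed to 53.1 to 81.4 FPKM and 54.3 to 77.9 FPKM. Of 10 tested, 9 had a positive change, and 1 lay above all controls and 0 below. Paneth cell markers, which are epithelial, summed to 4.46 to 58.8 FPKM and 30.8 to 49.8 FPKM. Of 9 tested, 7 had a positive change, and 0 lay above or below all controls. Against the day 6 set controls alone each of these lists had 4 members above and 0 below (19.7% and 22.5% of all genes). Markers of mast cells summed to at most 1.23 FPKM and those of enteric glia to at most 0.868 FPKM in these libraries, and the glial genes S100b and Sox10 were at 0 in both knockouts.

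**Figure D5:**
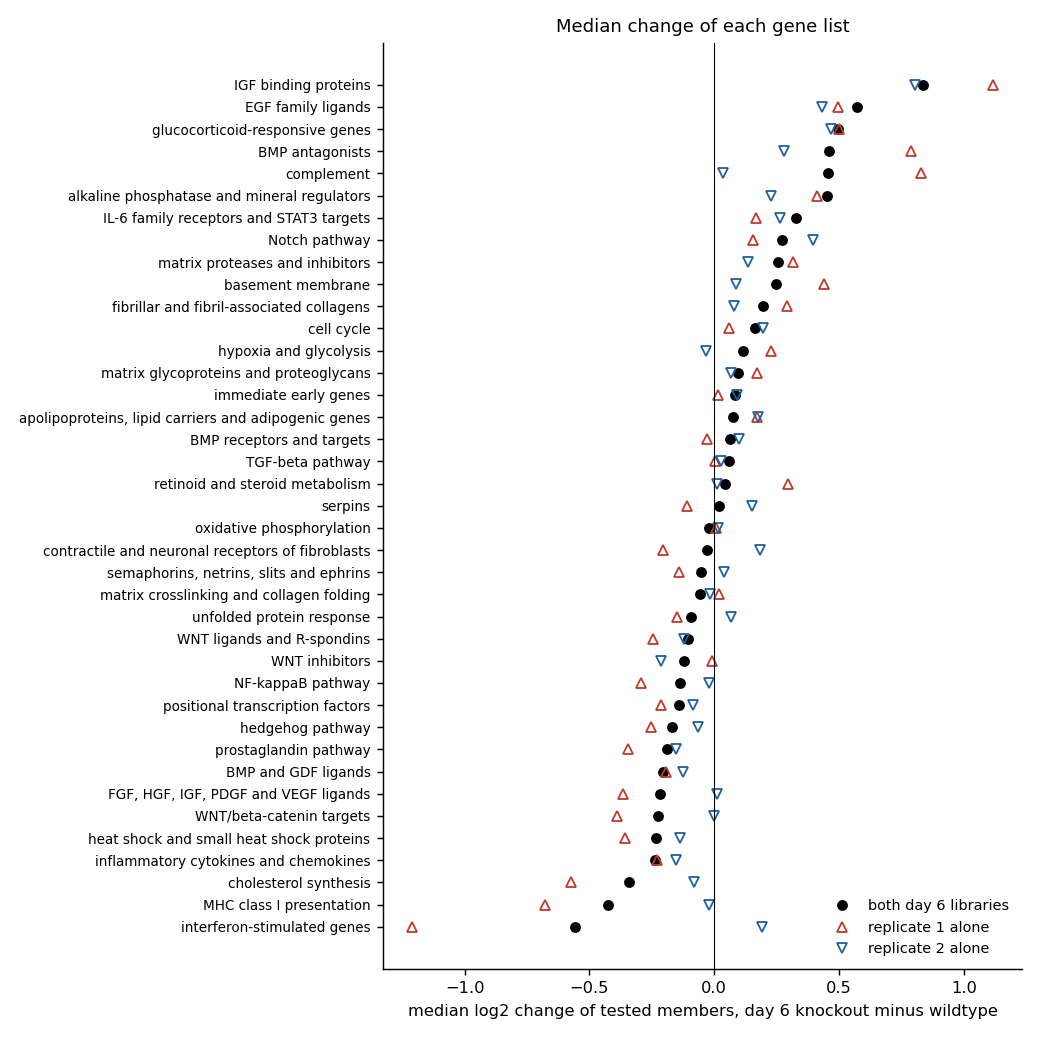
Median log2 change (day 6 knockout minus wildtype) of the tested members of each gene list that is not a cell marker list, with both day 6 libraries (black), with replicate 1 alone (red, upward) and with replicate 2 alone (blue, downward). Interferon-stimulated genes lie at -0.56, -1.21 and 0.19 in that order, and IGF binding proteins at 0.84, 1.12 and 0.81.

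No gene differed between day 6 and day 4 after adjustment (0 of 11735, smallest adjusted p = 0.196), while 1345 had an unadjusted p under 0.05. The count was 83 without the day 4 set control, 22 without day 4 replicate 1 and 2 without the second day 6 set control. Grem1 was at 143 and 101 FPKM in the day 4 knockouts, below all controls, and differed by 1.60 ± 0.32 (unadjusted p = 0.00113, adjusted p = 0.257). Alpl was at 296 and 363 FPKM at day 4 (difference -1.48 ± 0.25, adjusted p = 0.246) and Cxcl13 at 362 and 658 FPKM (-2.17 ± 0.31, adjusted p = 0.242), both above their day 6 levels. Rgs2, a regulator of G protein signalling, was at 62.8 and 90.6 FPKM at day 4 and 20.5 and 22.9 FPKM at day 6 (-1.76 ± 0.21, adjusted p = 0.196), against 14.5, 14.1 and 11.9 FPKM in the controls. The transcription factor Creb5 was at 4.61 and 4.62 FPKM at day 4 and 14.7 and 13.4 FPKM at day 6 (1.42 ± 0.19, adjusted p = 0.240). Apod and Serpina3m differed between the days by 0.34 ± 0.23 and -0.69 ± 0.40, with adjusted p of 0.642 and 0.566. The day 4 and day 6 knockouts belong to different sets, and whether each day's difference from the controls of its own set differs was not tested. Both knockout days were compared with the same controls.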

How the data were processed

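Poly-A RNA of sorted Pdgfra-low CD81+ cells was sequenced on an Illumina platform, per the labels. FPKM values were deposited by the authors, 1 column per library, with no statement of how they were made. The submitters' processing notes name kallisto 0.46.1, DESeq2 1.40.1 and the mm9 build without a role. The table gives no reads, and 543 values above 0 lie below 1e-06 FPKM, so values are not whole multiples of a read and the depth is unknown. Column sums were 352445 to 429805 FPKM.

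Columns were tied to groups by name, and control columns cannot be tied to numbered titles. Of 25493 entries 24908 symbols remained after keeping the entry with the highest mean, and 24772 matched mouse symbols. A model with 1 mean for each group was fitted by limma 3.58.1 (R 4.3.3) to log2(FPKM + 1) of all 7 libraries (4 residual degrees of freedom, prior following intensity), two-sided, with Benjamini-Hochberg adjustment over 11735 genes and a threshold of 0.05. The fit was tested on simulated data. Nothing says that libraries are separate animals, so each p reflects the spread among these samples alone, which may be technical.

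Named were 6 fixed genes, genes past the threshold, up to 12 per direction by p with no overlap between groups, a change of at least 1 and a mean of at least 3 FPKM, up to 5 for day 6 against day 4, and up to 4 per list. The 57 lists and the naming rule were chosen with earlier results of these data known. Results for 1 gene past the threshold are not reported here. Alternatives covered pseudocount, filter, scaling, controls, prior, repeated entries, zeros, Ddx3y and single libraries.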

Additional observations from a re-analysis of the deposited data

How the results depend on the processing

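Of the 5 genes called higher, the 4 described kept a positive change under all 22 alternatives: 2.52 to 2.82 for Apod, 3.25 to 4.14 for Serpina3m, 1.89 to 2.32 for Alpl and 2.02 to 3.65 for Hspb7. Apod passed the threshold under 15 of the 22, Serpina3m under 8, and Alpl and Hspb7 under 6 each. The count of genes higher, 5, became 2 with a pseudocount of 0.1, 3 with no filter, 1 with a filter of 3 FPKM, 0 with quantile normalization, 3 with median scaling, and 2 each with day 6 set controls alone and with the 4 libraries of the day 6 set. It was 10 with a constant prior, 8 with a robust prior and 0 with Ddx3y as a covariate. Leaving out 1 library gave 0 to 6. The cause of these shifts was not tested. No gene passed toward lower values in any of them; at an unadjusted p under 0.05 there were 407. The count for day 6 against day 4, 0, was 83 with day 6 set controls alone and 0 to 83 when 1 library was left out; 83 came without the day 4 set control, 22 without day 4 replicate 1 and 2 without the second day 6 set control.

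The column numbers 1 and 2 of the day 6 set were also taken as a replicate block, an alternative chosen after seeing the data. Same-numbered libraries deviated together with r = 0.135 across genes, which with 2 pairs does not show a pairing. With the replicate block 1 gene was higher (Hp), 0 were lower and 75 differed between days. Cd81 changed sign, to -0.13 with day 6 set controls alone (also as 4 libraries, with the block and without the day 4 set control), -0.18 with Ddx3y and -0.33 without day 6 replicate 1 (0.35 without replicate 2). With a day 6 library left out, the lone one was assumed to vary like the other groups. The depth behind the FPKM is unknown, so no counting error could be given.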

Other observations

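Further lists held no gene past the threshold. In the prostaglandin pathway, the prostacyclin receptor Ptgir had a change of 0.98 ± 0.23 (limma adjusted p = 0.420), and the PGE2 receptor Ptger4 was at 21.2, 21.6 and 27.2 FPKM in the controls and 13.8 and 19.3 FPKM in the knockouts (-0.48 ± 0.23). Of 15 tested members 3 lay above and 4 below all controls, against 13.9% and 11.9% of all genes. Among hypoxia and glycolysis genes, the lactate exporter Slc16a3 was at 0.908, 1.82 and 1.48 FPKM and 3.28 and 2.41 FPKM (0.69 ± 0.23), and the glucose transporter Slc2a1 at 7.85, 11.3 and 6.33 FPKM and 15.1 and 13.0 FPKM (0.69 ± 0.24). Both knockout libraries exceeded all controls for each. Of 22 tested members on that list 4 lay above all controls and 1, Gapdh, below (13.9% and 11.9% of all genes). Against the day 6 set controls 4 lay above and 5 below. The list median was 0.12, 0.23 with replicate 1 alone and -0.03 with replicate 2 alone.

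Of 16 tested cell cycle genes 5 lay above all controls and 1 below, against 13.9% and 11.9% of all genes. The median was 0.16, 0.06 with replicate 1 alone and 0.19 with replicate 2 alone. Ccnb2, a mitotic cyclin, was at 1.46, 0.300 and 0.695 FPKM in the controls and 2.29 and 2.34 FPKM in the knockouts (0.92 ± 0.31), and Mcm6, a subunit of the replication helicase, at 8.71, 8.43 and 7.23 FPKM and 11.4 and 9.40 FPKM (0.32 ± 0.16). Complement genes had a median of 0.46 over 19, of 0.83 with replicate 1 alone and 0.04 with replicate 2 alone. The median was 0.16 against the day 6 set controls. Only 1 complement gene, Cfp, lay above all controls and 3 lay below (13.9% and 11.9% of all genes). Hedgehog pathway genes had no member whose libraries separated the groups with all 3 controls (12 tested, median -0.17). Against the day 6 set controls alone 0 lay above and 4 below (19.7% and 22.5% of all genes), with a median of -0.26.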
